A study of Rattus norvegicus with 46 samples.

Results

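The genes described here are 8 rat genes of MHC class II antigen presentation, namely RT1-Ba, RT1-Bb, RT1-Da, RT1-Db1, RT1-DMa, RT1-DMb, Cd74 and Ciita. They were chosen by symbol, with no measured value in the rule, as 8 of the 23747 symbols in the authors' deposited gene tables. Earlier results of these data were known when they were chosen. The deposited transcript counts carry no symbols, so transcripts were paired with symbols by their values. That gave 6 of the 8 genes a level in every library. RT1-Bb and Ciita found no match, and for them the only values here are those of the authors' deposited tables.

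MHC class II molecules are pairs of an alpha and a beta chain on the surface of antigen-presenting cells, where they show peptides from taken-up protein to CD4+ T cells. In the rat, RT1-Ba and RT1-Bb encode the 2 chains of the RT1-B molecule, and RT1-Da and RT1-Db1 those of RT1-D. Cd74, the invariant chain, holds new class II molecules, fills their groove and guides them to endosomes. There RT1-DMa and RT1-DMb, the chains of the DM molecule, exchange the last piece of Cd74 for a peptide. Ciita is the coactivator that switches these genes on, and it acts through proteins already bound to their promoters at sequences called the X and Y boxes. Macrophages, dendritic cells and B cells are the usual class II positive cells of a tissue.

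Most of the 6 promoters found in the table, those of RT1-Da, RT1-Db1, RT1-Ba, RT1-Bb, RT1-DMa and Cd74, share letters that the rule did not use. The windows below are printed to show those letters. They are cut around the Y box letters TGATTGG, with 60 bases before and 10 after, and are read 5′ to 3′ on the strand of the gene. Capitals mark TGATTGG and, where present, the X box letters GNNACNGATG. The sequences come from RefSeq (GRCr8). RT1-Da lies on the plus strand at chr20:4515304-4515380, RT1-Db1 on the minus strand at chr20:4560228-4560304 and RT1-Ba on the plus strand at chr20:4576952-4577028. RT1-Bb lies on the minus strand at chr20:4604165-4604241 and RT1-DMa on the minus strand at chr20:4712385-4712461.
RT1-Da: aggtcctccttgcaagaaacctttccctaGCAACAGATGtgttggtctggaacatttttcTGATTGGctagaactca
RT1-Db1: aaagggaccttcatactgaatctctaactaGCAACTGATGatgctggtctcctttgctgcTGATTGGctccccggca
RT1-Ba: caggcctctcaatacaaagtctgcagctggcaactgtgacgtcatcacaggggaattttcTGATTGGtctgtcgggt
RT1-Bb: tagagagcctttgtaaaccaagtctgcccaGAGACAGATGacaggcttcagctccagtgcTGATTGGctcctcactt
RT1-DMa: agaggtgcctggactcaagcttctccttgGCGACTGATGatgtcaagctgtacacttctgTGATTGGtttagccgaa

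In the 250 bases before the start, searched on both strands, TGATTGG stood in 5 of the 6 members with a promoter in the table, and in 6.42% of all 33469 promoters. Cd74 was the member without it. GNNACNGATG stood in 4 of the 6 members and in 2.26% of all promoters. Both together, the X letters followed after 20 to 21 bases by the Y letters, were found in 4 promoters in all (0.012%), those of RT1-Da, RT1-Db1, RT1-Bb and RT1-DMa. The X letters and the gap were taken from these same 4 promoters, so the counts of the X letters and of both together were fixed by that choice and are no test. The RT1-Ba window holds the Y letters and not these X letters, which says nothing about the factors bound there.

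Poly(A) RNA was sequenced from rat shoulders to ask what the subacromial bursa, a thin sac over the rotator cuff, does after tendon injury. All operated rats had the supraspinatus tendon cut (tenotomy). Tissue was taken 3 or 14 days later, and rats without an operation gave the controls. The 46 libraries formed 8 groups. There were 5 control bursae and 5 control tendons. There were 6 bursae each at day 3 and day 14 after tenotomy, 6 tendons each at both days with the bursa intact, and 6 tendons each at both days with the bursa removed. Strain, age and sex are not in the labels, and the labels do not say which libraries came from the same rat, so p-values measure the spread between libraries.

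Libraries held 12425823 to 69947597 estimated counts, with 22615613 or fewer in all but bursa day 14 number 6. Levels are in CPM, counts scaled to the size of the library with TMM factors, which correct for differences in makeup between libraries. The CPM of 7 tendon genes such as Scx and Tnmd summed to 3968 to 9386 in control tendons and 61.6 to 2560 in control bursae. Of 4 genes of the synovial lining, Tspan15 was higher in control bursa than in control tendon (1.12 log2), Prg4 (-3.23) and Htra1 (-1.05) were lower and Clic5 (0.03) did not pass, and the 4 summed to 364 to 1124 CPM in control bursae and 1922 to 3256 in control tendons. Skeletal muscle genes summed to 24188 to 39699 CPM in control tendons and 1369 to 16613 in injured ones, so control tendons carried more muscle RNA, and its part in the tendon results was not tested. In bulk tissue, more class II positive cells and more class II RNA per cell cannot be told apart.

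Before injury, all 6 measured genes were higher in the bursa than in the tendon. The invariant chain Cd74 read 267, 293, 752, 653 and 773 CPM in control bursae 1 to 5, and 172, 127, 314, 115 and 85.8 CPM in control tendons 1 to 5. Control bursae 1 and 2 were thus low and control tendon 3 high, and the ranges overlapped. RT1-Ba, with 86.2, 80.6, 180, 159 and 223 CPM in control bursae and 45.7, 30.6, 75, 29.3 and 19.2 CPM in control tendons, did not overlap. In edgeR's quasi-likelihood test the log2 difference was 1.87 ± 0.26 (SE) for RT1-Ba (adjusted p = 1.1e-07) and 1.75 ± 0.26 for Cd74 (adjusted p = 6.3e-07). For RT1-DMa it was 1.05 ± 0.21 and for RT1-DMb 0.93 ± 0.19. The members' median was 1.67, beside 0.10 over all features. Of the 19346 features tested, 48.1% were called in either direction (adjusted p under 0.05, Benjamini-Hochberg over all features) and 27.5% higher in the bursa.

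At day 3 after tenotomy, all 6 genes had risen in the tendon. With the bursa intact, Cd74 went to 630 CPM (lowest), 780 (median) and 1055 (highest of 6 libraries), a mean of 807 ± 138 (SD) against 163 ± 90 (n = 5) in control tendons. The peptide-binding chain RT1-Da went to 296, 325 and 552 CPM, from 62.6, 51.2, 113, 40 and 38.9 in control tendons. Every injured library lay above every control for all 6 genes, also for RT1-DMa with 39.9, 45.2 and 61.9 CPM (lowest, median, highest) against 5.67 to 10.7. The share of all features without overlap was not counted, in this or any other comparison. The log2 fold changes were 2.56 ± 0.25 for RT1-Da (adjusted p = 1.1e-09), 2.52 ± 0.20 for RT1-DMa (3.7e-11) and 2.29 ± 0.25 for Cd74 (8.4e-09). RT1-Ba changed by 2.48 ± 0.25 and RT1-Db1 by 2.27 ± 0.25. RT1-DMb, the DM beta chain, rose least, by 1.85 ± 0.20. The median of the 6 was 2.39, against -0.00 over all features. At this stage of injury much of the transcriptome had moved, since 61.4% of 18353 features were called and 30.9% were higher.

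With the bursa removed, the day 3 tendon was set against the same 5 control tendons, so the tendon comparisons with control share these libraries. Cd74 read 610, 888 and 1060 CPM (lowest, median, highest of 6), RT1-Ba 164, 261 and 312, and RT1-DMa 29, 51.5 and 61.6. All 6 genes rose (58.6% of features called, 29.1% higher) and none overlapped with the control tendons. The log2 fold changes ran from 1.80 ± 0.20 for RT1-DMb to 2.72 ± 0.25 for RT1-Da, with a median of 2.47 beside -0.01 over all features.

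**Figure D1:**
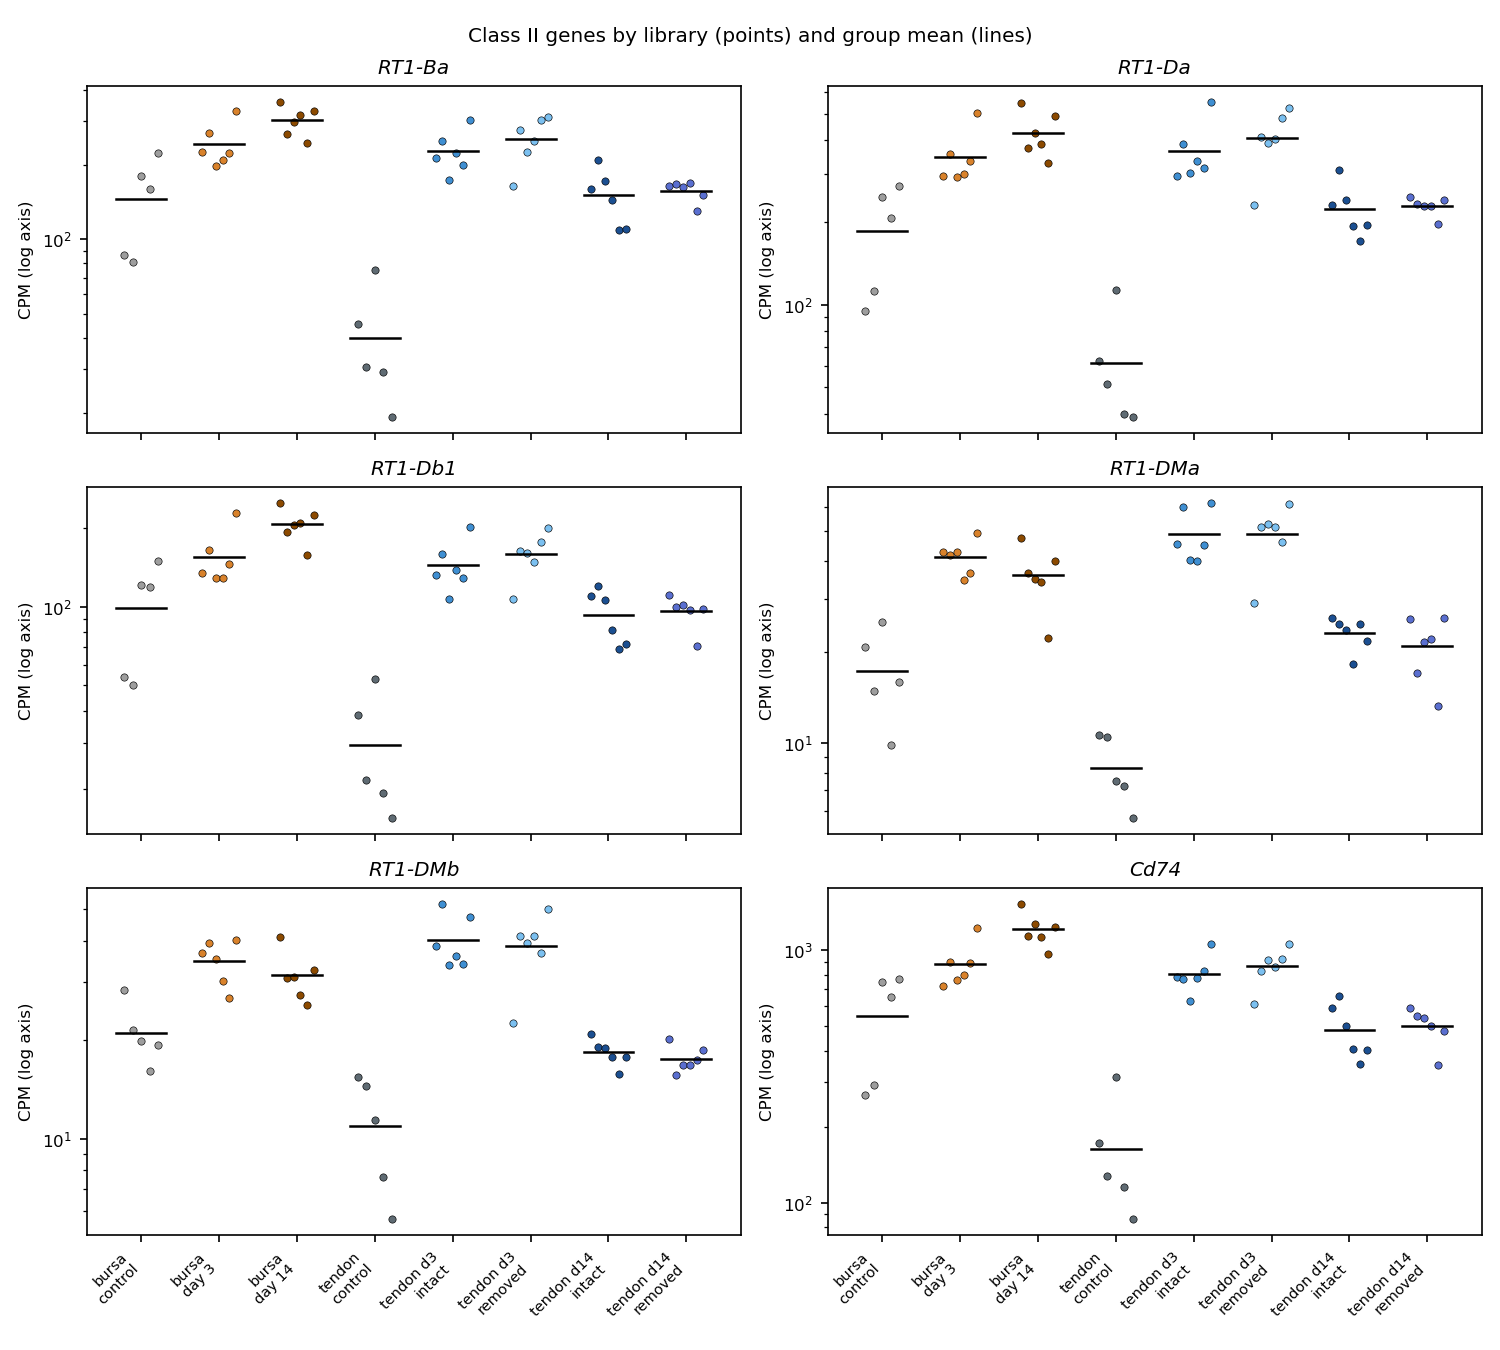
Level of each measured class II gene (CPM, log axis) in every library, by group along the horizontal axis, with points for libraries and a line at each group's mean. Control tendons are lowest for all 6 genes, Cd74 means run from 163 CPM there to 1210 CPM in the bursa at day 14, and the DM genes are highest in the day 3 tendons.

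By day 14 the tendon levels had come down part of the way. With the bursa intact, Cd74 read 354, 454 and 657 CPM (lowest, median, highest), RT1-Da 171, 214 and 310, RT1-DMa 18.2, 24.2 and 25.8, and RT1-DMb 15.7, 18.3 and 20.8. All 6 genes stayed higher than in control tendons, with no overlap (62.5% of features called, 32.3% higher). RT1-Ba was up by 1.90 ± 0.25 (log2; adjusted p = 2.1e-07) and Cd74 by 1.57 ± 0.24, while RT1-DMb was up by 0.72 ± 0.19 (adjusted p = 0.002). The members' median was 1.60, beside 0.03 over all features. Tendons without the bursa gave 6 of 6 higher as well (61% of features called, 31.3% higher), from 0.66 ± 0.19 for RT1-DMb to 1.96 ± 0.25 for RT1-Ba, with a median of 1.65.

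From day 3 to day 14 all 6 genes fell in the tendon with the bursa intact (39% of features called, 19.8% lower) and with it removed (40.7% called, 20.6% lower). The DM genes fell most. With the bursa intact, the log2 change was -1.06 ± 0.17 for RT1-DMa and -1.13 ± 0.18 for RT1-DMb, against -0.59 ± 0.22 for RT1-Ba, -0.63 ± 0.22 for RT1-Db1, -0.70 ± 0.22 for RT1-Da and -0.73 ± 0.22 for Cd74. With it removed, the DM genes changed by -1.22 ± 0.18 and -1.14 ± 0.18 and the other 4 by -0.69 to -0.83. For RT1-DMa and RT1-DMb every day 14 library was below every day 3 library in both settings. The 4 others overlapped, except Cd74 with the bursa removed. Whether the DM genes differ from the others was not tested. The calls of RT1-Ba (-0.59, adjusted p = 0.037) and RT1-Db1 (-0.63, adjusted p = 0.026) with the bursa intact were close to the threshold: RT1-Ba lost its call when any of day 14 libraries 4, 5 or 6 or day 3 libraries 2 or 6 was left out, and RT1-Db1 without any of day 14 libraries 4, 5 or 6 or day 3 library 6, with adjusted p of at most 0.096. RT1-Ba also lost it without the low-count filter (adjusted p = 0.059).

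**Figure D2:**
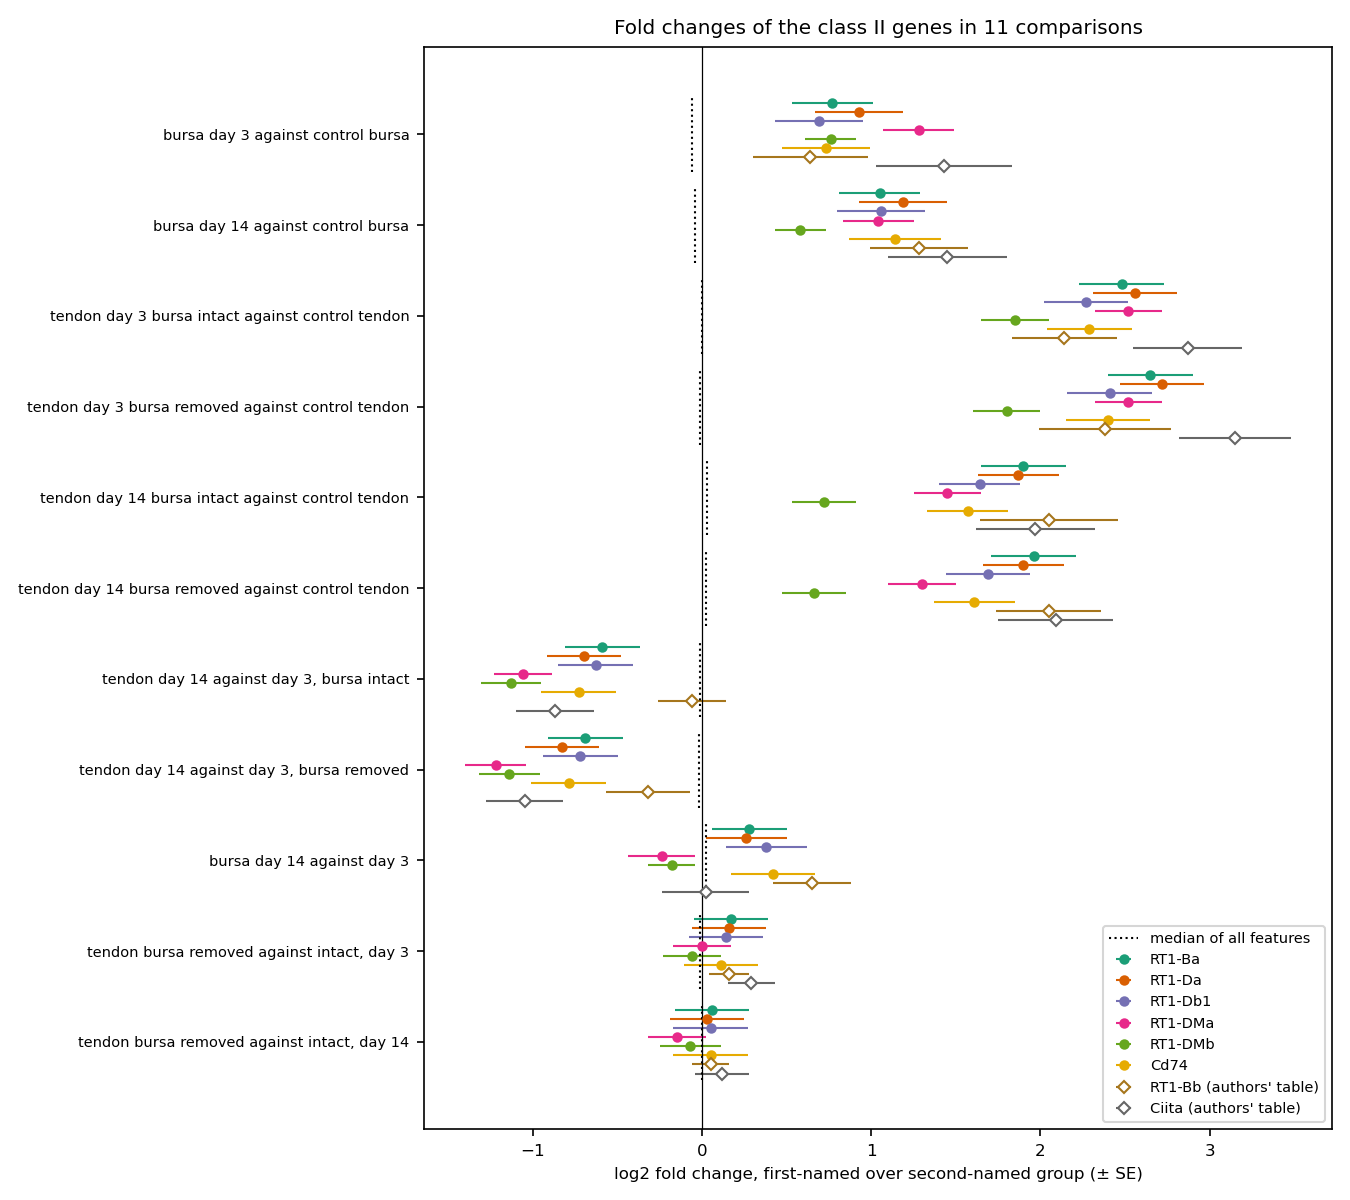
Log2 fold change with its SE (horizontal axis) of each class II gene in 11 comparisons of 2 groups (vertical axis), with filled circles for fits made here, open diamonds for RT1-Bb and Ciita from the authors' deposited tables, and dotted lines at the median of all features. The tendon gains at day 3 lie between 1.80 and 3.15, RT1-DMb is lowest at day 14, and removed against intact bursa lies near 0.

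No effect of taking out the bursa on the class II genes of the tendon was detected. At day 3 the removed group minus the intact group was 0.17 ± 0.22 (log2) for RT1-Ba, 0.11 ± 0.22 for Cd74, 0.00 ± 0.17 for RT1-DMa and -0.06 ± 0.17 for RT1-DMb. At day 14 the differences ran from -0.15 ± 0.17 for RT1-DMa to 0.06 ± 0.22 for RT1-Ba, and the ranges of the 2 groups overlapped for all 6 genes on both days. None of the 6 measured members passed edgeR's test at day 3 or day 14, and none of the 6 had an unadjusted p under 0.05 in that test. That background was 0% on both days, since none of 18353 features was called. At an unadjusted p under 0.05 there were 1307 features at day 3 and 251 at day 14, and DESeq2 called 14 and 7. Nor was a difference detected between the effects of removal at day 14 and at day 3: for the 6 members it was -0.15 to -0.01, with 0 of 18353 features called (0%), 299 at an unadjusted p under 0.05 and 3 by DESeq2. A p that misses the threshold does not show that the groups were alike. The SE of a member's difference was 0.17 to 0.22 (log2) on either day in this fit over all 29 tendon libraries. In the authors' deposited tables, made from the 2 groups alone, the SE of these 6 genes was smaller. It ran from 0.10 (Cd74) to 0.14 (RT1-DMb) at day 3 and from 0.07 (Cd74) to 0.14 (RT1-DMa) at day 14.

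In the bursa itself all 6 genes were higher than in control bursae at both days. Cd74 read 720, 847 and 1227 CPM (lowest, median, highest of 6) at day 3 and 966, 1187 and 1524 at day 14, beside 267 to 773 in control bursae. RT1-Ba read 198, 224 and 329 CPM at day 3 and 244, 308 and 358 at day 14. RT1-DMa read 34.5, 42.2 and 49.2 CPM at day 3 and 22.3, 35.6 and 47.3 at day 14, from 20.8, 14.9, 25.1, 9.86 and 15.9 in control bursae. At day 3 only RT1-Da and RT1-DMa cleared every control bursa. At day 14 the 3 chain genes and Cd74 did, and the DM genes overlapped.

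All 6 genes passed the test in the bursa at day 3 (42.7% of features called, 20.5% higher), from 0.69 ± 0.26 (log2) for RT1-Db1 (adjusted p = 0.042) and 0.73 ± 0.26 for Cd74 (0.035) to 1.28 ± 0.21 for RT1-DMa (0.00019), with a median of 0.76 beside -0.06 over all features. Fitted on these 2 groups alone, RT1-Db1 (adjusted p = 0.092) and Cd74 (0.082) were not called, nor was RT1-Db1 without the low-count filter (0.054). Control bursae 1 and 2, the low ones, bear on this result. Without both, an alternative chosen after seeing the data, 3 members were called, beside 7145 of 18875 features. Cd74 (0.34, adjusted p = 0.12), RT1-Db1 (0.31, 0.19) and RT1-Ba (0.42, 0.061) were not called. RT1-Db1 and Cd74 also lost their calls when either of these controls, or bursa day 3 library 2, 5 or 6, was left out alone. At day 14 all 6 were higher as well (13.8% of features called, 8.18% higher), from 0.58 ± 0.15 for RT1-DMb (adjusted p = 0.02) to 1.19 ± 0.26 for RT1-Da (0.0073), with a median of 1.06 beside -0.04. All 6 genes were called at day 14 also without control bursae 1 and 2, and RT1-DMb was not (adjusted p = 0.052) when these 2 groups were fitted alone. With the library numbers as a block, 2 members were called at day 3, beside 3879 of 17514 features. At day 14 that block left 0 members called, beside 82 of 17757 features.

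Between day 3 and day 14 none of the 6 measured members passed edgeR's test in the bursa, where 18.9% of 18257 features were called. In this fit over all bursa libraries none of the 6 had an unadjusted p under 0.05, and DESeq2 on the same libraries called none of them. The signs were mixed: Cd74 changed by 0.42 ± 0.25, RT1-Db1 by 0.38 ± 0.24, RT1-Ba by 0.28 ± 0.22 and RT1-Da by 0.26 ± 0.24, whereas RT1-DMa changed by -0.24 ± 0.20 and RT1-DMb by -0.18 ± 0.14. Fitted on these 2 groups alone, Cd74 was called (0.42, adjusted p = 0.042). In the authors' deposited table Cd74 was also higher at day 14, by 0.46 ± 0.14 (padj 0.0054), as was RT1-Bb by 0.65 ± 0.23 (padj 0.018). That table had RT1-Db1 at 0.39 ± 0.17 (padj 0.055) and RT1-Ba at 0.30 ± 0.14 (padj 0.084), which did not pass. It did not call RT1-Da, RT1-DMa, RT1-DMb or Ciita either.

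The response was smaller in the bursa than in the tendon at day 3, and this was tested as a difference of fold changes between the tissues. For all 6 genes the bursa's log2 fold change was below that of the tendon with the bursa intact, by -1.77 ± 0.34 for RT1-Ba (adjusted p = 0.00018), -1.68 ± 0.34 for RT1-Da, -1.64 ± 0.35 for RT1-Db1, -1.62 ± 0.35 for Cd74, -1.29 ± 0.28 for RT1-DMa and -1.14 ± 0.25 for RT1-DMb (adjusted p = 0.00097). The median was -1.63, beside -0.09 over all features, of which 21.3% were called and 12.9% were lower. All 6 remained called without control bursae 1 and 2. At day 14 only RT1-Ba passed, at -0.86 ± 0.34 with an adjusted p of 0.048 (31.5% of features called, 17.6% lower), and the others ran from -0.69 for RT1-Da to -0.15 for RT1-DMb. That single call was lost when any of 15 of the 22 libraries was left out, and kept only without control bursa 1 or 2, control tendon 1 or 3, bursa day 14 library 1 or tendon day 14 library 5 or 6. Without control tendon 3, 4 members were called, beside 6031 of 19597 features. Without control bursa 1, 2 members were, beside 6971 of 19580 features. These contrasts took all libraries as independent, although bursa and tendon libraries of equal number at day 3 varied together (6 of 6 pairs with r of 0.14 to 0.25 across 9938 features). With the day 3 numbers as a block in a fit of the 4 groups alone, added after seeing the data, 5 of 6 members were called at day 3 in the same direction, and Cd74 was at -1.51 (adjusted p = 0.055).

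The order of the groups by mean level was not the same for all genes. For Cd74 it ran from bursa day 14 (1210 CPM) over bursa day 3 (883), tendon day 3 with the bursa removed (867) and intact (807), control bursa (548) and tendon day 14 removed (501) and intact (485) down to control tendon (163). Neighbours in this order overlapped, save the last step. RT1-Ba, RT1-Da and RT1-Db1 also had their highest mean in the bursa at day 14, at 302, 426 and 207 CPM. RT1-DMa and RT1-DMb had theirs in the day 3 tendons, at 48.8 and 40.4 CPM, which overlapped with the bursa at day 3 (41.2 and 34.8 CPM). In the order for RT1-Ba, neighbours did not overlap between tendon day 3 with the bursa intact (227 CPM) and tendon day 14 with it removed (157 CPM), nor between control bursa (146 CPM) and control tendon (39.9 CPM). For RT1-Da the one such step lay between bursa day 3 (347 CPM) and tendon day 14 removed (230 CPM).

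The single control libraries did not rank alike for all genes. RT1-Db1, like Cd74, was low in control bursae 1 and 2, with 54, 50.3, 121, 119 and 150 CPM in control bursae 1 to 5, and high in control tendon 3, with 38.5, 21.7, 52.9, 19.4 and 15.5 CPM in control tendons 1 to 5. RT1-DMb was not: it read 28.3, 21.5, 19.9, 16.1 and 19.3 CPM in control bursae and 15.4, 14.5, 11.4, 7.66 and 5.67 CPM in control tendons, so the bursae low for Cd74 were its 2 highest. For RT1-DMa, control bursa 1 (20.8 CPM) was second highest and control bursa 2 (14.9 CPM) second lowest. After injury RT1-DMb read 26.8, 36.1 and 40.3 CPM (lowest, median, highest) in the bursa at day 3, and 33.9, 37.4 and 51.9 CPM in the tendon at day 3 with the bursa intact. RT1-Db1 read 129, 141 and 228 CPM in that bursa group and 107, 135 and 203 CPM in that tendon group, which overlapped.

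For RT1-Bb, the RT1-B beta chain, the authors' deposited tables gave rises in tendon at day 3 of 2.14 ± 0.31 (bursa intact) and 2.38 ± 0.39 (removed) and at day 14 of 2.05 ± 0.41 and 2.05 ± 0.31 on the log2 scale. Its fall from day 3 to day 14 was -0.06 ± 0.20 (padj 0.83) and -0.32 ± 0.25 (padj 0.31), which did not pass, while in the same deposited tables its partner chain RT1-Ba fell by 0.57 and 0.69. In the bursa the deposited table had RT1-Bb at 0.64 ± 0.34 at day 3 (padj 0.11) and 1.28 ± 0.29 at day 14 (padj 0.00025), and higher at day 14 than at day 3 by 0.65 ± 0.23 (padj 0.018). Removal of the bursa gave 0.16 ± 0.12 at day 3 (padj 0.66) and 0.05 ± 0.11 at day 14 (padj 1) in the authors' deposited tables.

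Ciita, the coactivator, had the largest tendon rise of the 8 genes at day 3 in the authors' deposited tables, 2.87 ± 0.32 with the bursa intact and 3.15 ± 0.33 with it removed. It was at 1.97 ± 0.35 and 2.09 ± 0.34 at day 14, and fell between the days by 0.87 and 1.05 in the deposited tables. In the bursa the authors' deposited table had it up by 1.43 ± 0.40 at day 3 and 1.45 ± 0.35 at day 14, with 0.02 ± 0.26 between the days. In the authors' deposited tables, removal of the bursa gave 0.29 ± 0.14 at day 3 (unadjusted DESeq2 p = 0.047, padj 0.42). At day 14 it gave 0.12 ± 0.16 (padj 1) in these tables. Over the 8 genes, the deposited tables called 8 of 8 higher in each of the 4 tendon comparisons with control, where they called 30.1% and 27.9% of all genes higher at day 3 and 29.7% and 29.2% at day 14, with the bursa intact and removed. In the bursa the deposited tables called 6 of 8 higher at day 3 (20.8% of all genes), 8 of 8 at day 14 (10.1%) and 2 of 8 from day 3 to day 14 (16.5%). Cd74 (0.67 ± 0.30, padj 0.057 in the deposited table) and RT1-Bb were not called in the bursa at day 3. The deposited tables called 7 of 8 lower from day 3 to day 14 in both tendon settings (22% of all genes with the bursa intact and 22.3% with it removed), and 0 of 8 for removal of the bursa at day 3 (1.03%) or day 14 (0.0108%).

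Among themselves the 6 measured genes formed 2 sets. Over the 46 libraries, RT1-Ba, RT1-Da, RT1-Db1 and Cd74 correlated with each other at Pearson's r of 0.97 to 0.99 on the log2 CPM scale, and RT1-DMa with RT1-DMb at 0.94. Across the sets r was 0.81 to 0.87. These values describe libraries that share tissue and injury group, and no test was made of them. Of 10197 other genes with a mean of at least 1 CPM, those most like Cd74 over the 46 libraries were Fyb1, Rac2 and Pld4 (r = 0.92 each), Aoah (0.91) and Cst7 (0.90). Pld4 had means of 38.3 CPM in control bursa, 67.2 at day 3 and 85.8 at day 14, and 12.7, 40.5 and 27.4 in control, day 3 and day 14 tendon with the bursa intact.

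Macrophages carry class II, and the Cd74 level was set against 10 macrophage genes (of 13 listed, among them Cd68, Adgre1, Mrc1 and C1qa) in each library, as log2 Cd74 minus their mean log2. In control bursae this difference was 3.14, 3.71, 3.24, 3.01 and 3.30. At day 3 it was 2.02, 2.30 and 2.58 (lowest, median, highest) and at day 14 2.71, 3.10 and 3.26. So the macrophage genes rose more than Cd74 in the bursa at day 3, from a mean log2 level of 5.67 to 7.48, and at day 14 the difference was -0.21 from control, which did not pass (adjusted exact permutation p = 0.26). The fall at day 3, from a mean of 3.28 ± 0.27 to 2.29 ± 0.22 (SD), was tested (two-sided exact permutation test, p = 0.0043, the smallest 6 against 5 libraries allow, adjusted 0.024 over 11 comparisons) as was the later gain of 0.78 (exact permutation p = 0.0022, the smallest for 6 against 6, adjusted 0.024), both with no overlap. The fall ran from -1.06 to -0.89 without any 1 library and was -0.90 without control bursae 1 and 2. With 4 or 3 control bursae left, the adjusted exact permutation p was 0.052 and 0.13. These came from the smallest two-sided p those numbers allow (0.0095 and 0.024), and the adjusted p also depends on the other comparisons.

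In the tendon none of the 8 comparisons passed over all libraries. The difference was 2.02, 1.44, 3.34, 2.41 and 2.07 in control tendons, where number 3 stood high, and 2.44, 2.69 and 2.98 (lowest, median, highest) at day 3 with the bursa intact. Against control tendon it was higher by 0.43 to 0.60 in the 4 injured groups, with an adjusted p of 0.25 to 0.26 in the exact permutation test. Without control tendon 3 these became 0.70 (adjusted exact p = 0.026) and 0.87 (0.026) at day 3, and 0.77 (0.035) and 0.82 (0.035) at day 14, with the bursa intact and removed. From day 3 to day 14 it changed by 0.07 and -0.04, and removal of the bursa changed it by 0.16 and 0.05, none of which passed.

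**Figure D3:**
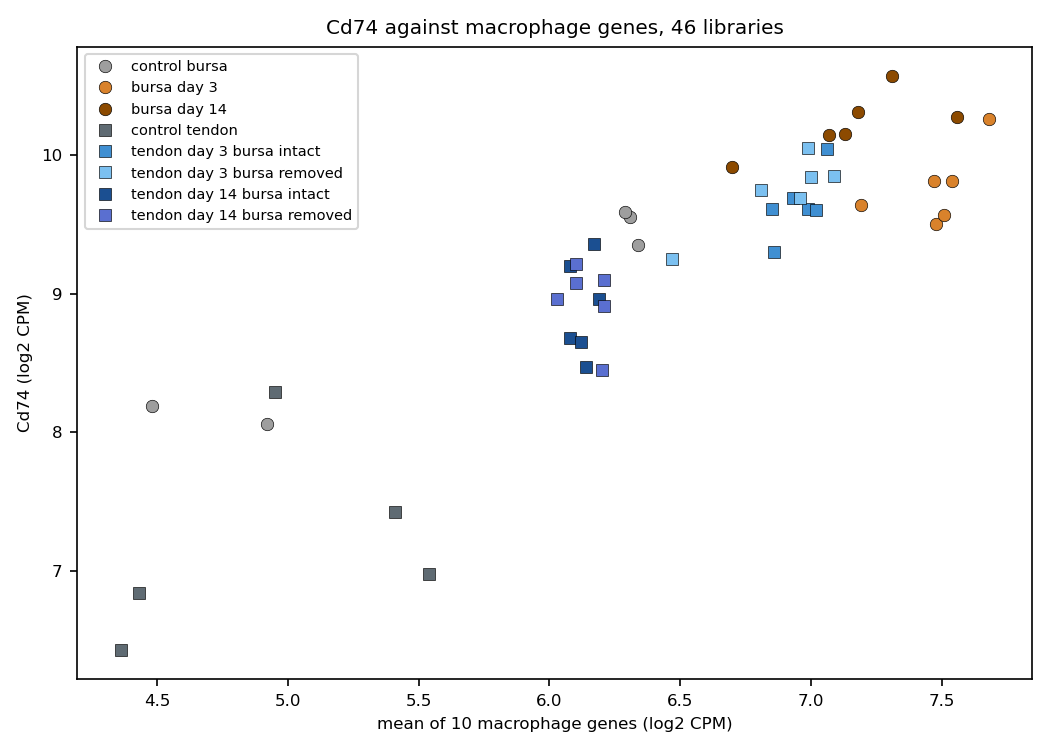
Cd74 (vertical axis, log2 CPM) against the mean of 10 macrophage genes (horizontal axis, log2 CPM), 1 point per library and a colour per group, with circles for bursa and squares for tendon. Bursae at day 3 have macrophage means of 7.19 to 7.68 and most lie lower in Cd74 than the day 14 bursae, whose macrophage means are 6.70 to 7.56.

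Cd74 was counted as 2 transcripts, ENSRNOT00000025344.5 and the less abundant ENSRNOT00000025354.7. How the 2 transcripts differ was not worked out here, and this comparison was chosen after their values were seen. The minor one held 15.6, 13.2, 16.3, 16.9 and 16.2% of Cd74 counts in control bursae, and 8.47, 10.1 and 10.6% (lowest, median, highest) at day 3. At day 14 it held 12, 15 and 15.8%. In tendon it held 14.3, 9.62, 14.3, 13 and 16.4% in controls, 7.47, 9.03 and 10.1% at day 3 and 13.5, 14.6 and 15.2% at day 14 with the bursa intact, and a mean of 7.83 ± 0.976% at day 3 and 13.9 ± 0.487% at day 14 with it removed. Thus the share was low in all 3 groups of day 3, and back near the control level in all 3 of day 14, while total Cd74 stayed above control at both times.

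The drop at day 3 was -5.76 percentage points in the bursa (exact permutation p = 0.0043, adjusted 0.0095), -4.58 in the tendon with the bursa intact (p = 0.013, adjusted 0.024) and -5.68 with it removed (exact p = 0.0043, adjusted 0.0095). From day 3 to day 14 it rose by 4.81, 5.63 and 6.06 points (exact permutation p = 0.0022, adjusted 0.0079 each), and no day 14 library overlapped with its day 3 group. In the bursa day 3 group the minor transcript stood at 87.2 ± 20.8 CPM, beside 87.5 ± 43.6 in control bursae, while the major one went from 460 ± 205 to 796 ± 163. In tendon both were higher at day 3: the minor one went from 22.1 ± 13.6 CPM in controls to 71.6 ± 11.3 (bursa intact) and 68.3 ± 16.3 (removed), and the major one from 141 ± 76.8 to 736 ± 130 and 799 ± 135. Control tendon 2, at 9.62%, overlapped with the day 3 tendons of the bursa intact group, and that comparison had an adjusted exact p of 0.052 without control tendon 1, 3, 4 or 5. Removal of the bursa gave -1.1 points at day 3 and -0.673 at day 14, neither of which passed (adjusted exact permutation p = 0.11 for both). Day 14 against control was not called in bursa (-0.948) or tendon (1.05 and 0.373). Without control bursa 2 the bursa difference was -1.56 (adjusted exact p = 0.045).

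**Figure D4:**
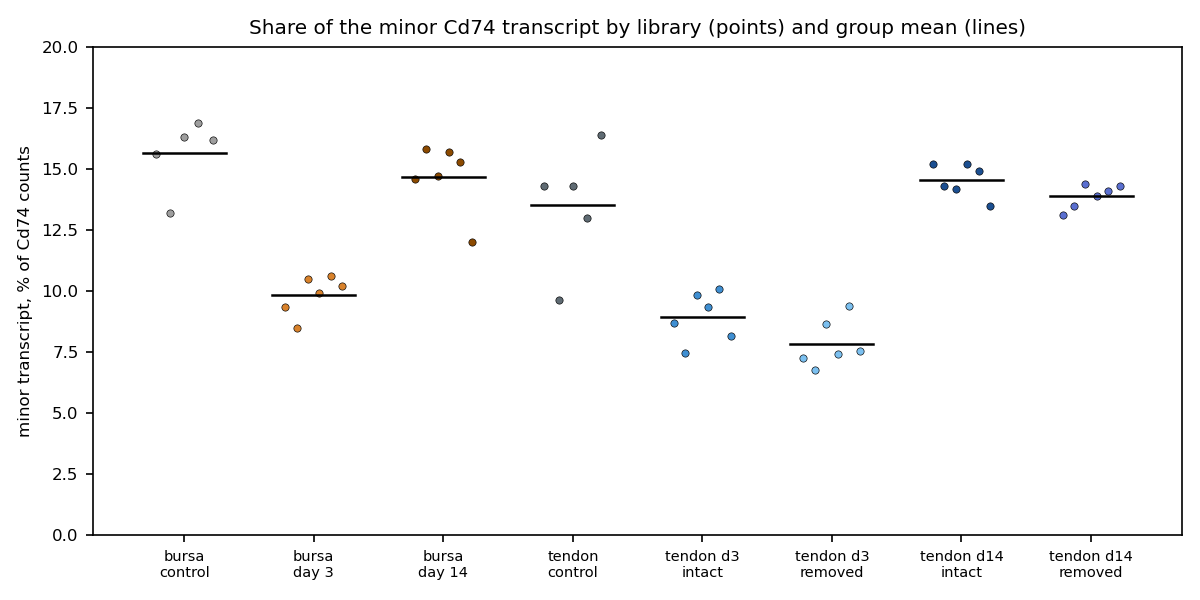
Share of Cd74 counts in the minor transcript (vertical axis, percent) in every library by group, with points for libraries and a line at each group's mean. The 18 libraries of day 3 lie between 6.76% and 10.6%, and those of day 14 between 12% and 15.8%.

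RT1-Db1, the RT1-D beta chain, was also read from 2 transcripts, and their split varied in another way. ENSRNOT00000060327.3 held 3.71 to 69.3% of RT1-Db1 counts across libraries, with wide ranges among the controls of both tissues. At day 14 library number 4 was lowest in all 3 groups, at 26.3% in bursa, 22.7% in tendon with the bursa intact and 39.4% with it removed. At day 3 number 2 was lowest in all 3 groups, at 15.8, 24.8 and 46.3%. Control number 4 had 4.27% in bursa and 15.2% in tendon, but number 5 had 3.71% in bursa and 50.4% in tendon. The labels do not tie numbers to rats, and a cause of the split was not tested. The 2 transcripts together made up 94.3 to 95.6% of the deposited mean of RT1-Db1, and its near-identical copy RT1-Db2 may share reads with it, so the RT1-Db1 values are less sure than those of the other chains. RT1-DMb likewise has another transcript with identical counts in every library, so its reads may be split between 2 copies.

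**Figure D5:**
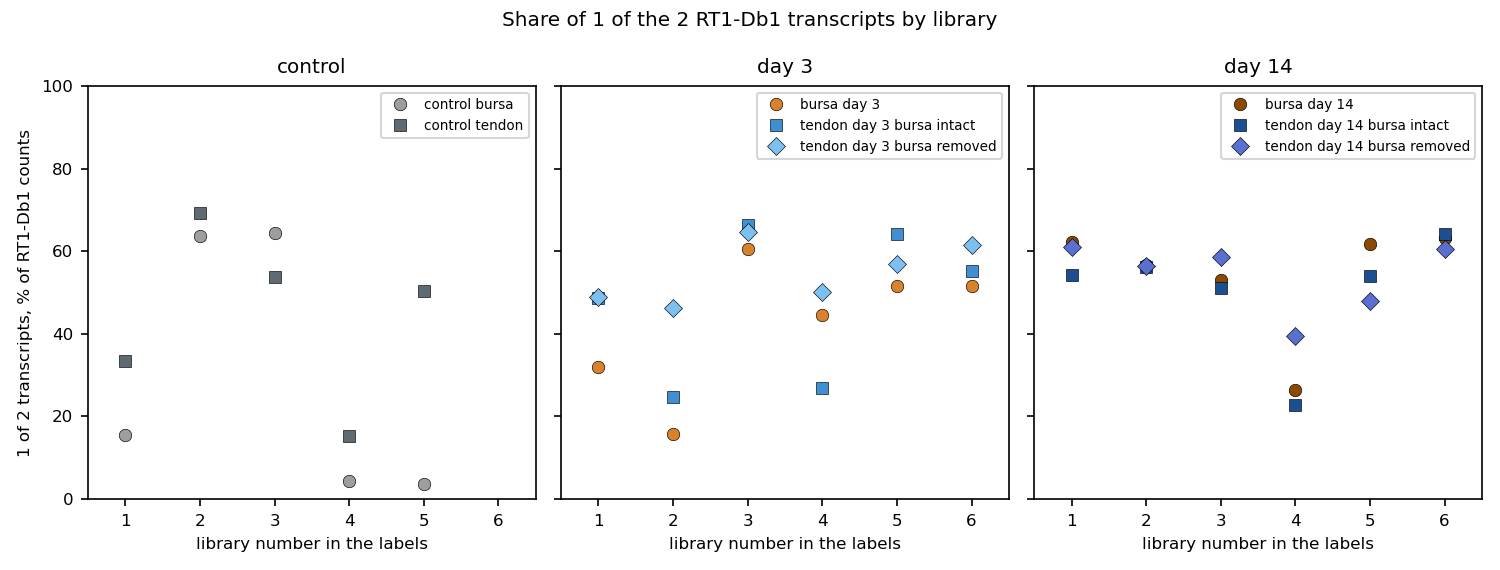
Share of RT1-Db1 counts in ENSRNOT00000060327.3 (vertical axis, percent) against the library number in the labels (horizontal axis), in panels for controls, day 3 and day 14, with a symbol and colour per group. At day 14 number 4 is lowest in all 3 groups (22.7 to 39.4%), and at day 3 number 2 is (15.8 to 46.3%).

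Of the list for antigen processing for class II, 9 of the 11 genes could be tested. The 9 include Marchf1 and RT1-DOb, so not all of them prepare antigen. Of all features, 30.9% were higher at day 3 and 32.3% at day 14 in tendon with the bursa intact. In the bursa 20.5% and 8.18% were. From day 3 to day 14, 19.8% were lower in that tendon, and 18.9% were called in the bursa. In the tendon all 9 rose at day 3 with the bursa intact (median 1.89 log2), among them Lgmn, an endosomal protease that cuts Cd74 and antigen (3.20), Ifi30, a reductase that opens disulfide bonds of antigen (2.22), and Ctss, the protease that trims Cd74 (1.57). All 9 were still higher at day 14 (median 1.37). From day 3 to day 14, 6 of the 9 fell, Lgmn by 1.59 and Ctss by 0.97, and the membrane protein gene Lamp1 rose by 0.32. In the bursa 7 of 9 rose at day 3 (median 1.30) and 6 at day 14. There 6 of the 9 fell between the days, with Lgmn at -1.63 and Ifi30 at -0.94, while no class II member was called lower. RT1-DOb, among these 9 and a chain of the inhibitor of DM, was up by 1.89 at day 3 and 1.47 at day 14 in tendon with the bursa intact.

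Of 15 listed regulators of class II, 13 were tested. In the tendon at day 3 with the bursa intact, 7 rose and 2 fell (median 0.39). There 61.4% of all features were called and 30.9% were higher. Irf8, a factor of macrophages and dendritic cells, was at 3.02. The X box protein gene Rfx5 was at 0.18, which did not pass, and Rfxank and the Y box subunit Nfyc fell by 0.28 and 0.23. The interferon-induced factor gene Irf1 (0.26) did not pass in that comparison, and the receptor genes Ifngr1 (0.83) and Ifngr2 (1.03) rose. In the bursa, 6 of 13 rose and 1 fell at day 3 (42.7% of all features called, 20.5% higher). At day 14, 5 rose and 2 fell (13.8% called, 8.18% higher). Irf8 was at 1.98 at day 3 and 1.90 at day 14 there. None of the 13 was called for removal of the bursa.

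Genes of other steps of presentation moved less uniformly. Among all features, 61.4% were called at day 3 and 62.5% at day 14 in tendon with the bursa intact. In the bursa 42.7% and 13.8% were. Of the class I list, the route to CD8+ T cells, 0 of 12 tested genes passed in the bursa at either day (median 0.29 and 0.62), and in tendon with the bursa intact 6 rose at day 3 and 5 fell at day 14, for example B2m at -0.34. Of the co-stimulation list, 3 of 8 were tested in tendon: Cd40 (1.00) and Cd83 (0.85) rose and Cd274, an inhibitory ligand, fell by 0.68 at day 3 with the bursa intact. In the bursa 4 of 8 were tested and none rose: Cd274 and Pdcd1lg2, another inhibitory ligand, fell by 1.03 and 0.96 at day 3, and Cd40 by 0.65 at day 14. Cd4, the receptor for class II, rose in the bursa by 1.40 at day 3 and 1.22 at day 14 and in that tendon group by 1.14 and 0.90. Rat macrophages also carry CD4, so this is no count of T cells. Of the interferon gamma response list, 1 of 8 tested genes rose in the bursa at day 3 and 3 at day 14. Bursa day 14 library 6, the deepest, had Mx1 at 1456 CPM against 9.35 to 46.8 in the other 5, with Cd74 at 1238 CPM, inside its group's range.

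Most tested markers of macrophages and dendritic cells also rose after injury, and the part of class II positive cells in the results was not tested. Over all features, 30.9% were higher at day 3 and 32.3% at day 14 in tendon with the bursa intact. In the bursa 20.5% and 8.18% were. In tendon at day 3 with the bursa intact 10 of 10 macrophage genes rose (median 2.17; sum 4130 to 6923 CPM against 726 to 2107 in controls), and at day 14 7 of 10 (2124 to 2904 CPM). In the bursa 9 of 10 rose at day 3 (3022 to 4248 CPM against 421 to 1758) and 7 at day 14 (1817 to 3222 CPM). Control bursae 1 and 2, low for Cd74, were also low for these genes, at mean log2 levels of 4.92 and 4.48 against 6.29 to 6.34. Of the dendritic cell list, 7 of 9 tested rose in tendon at day 3 with the bursa intact and 8 of 9 at day 14 (median 3.35 and 3.01), with the conventional dendritic cell gene Clec9a at 3.35 and 3.42 and Flt3 at 2.39 and 2.38. Zbtb46, a factor of conventional dendritic cells, fell by 0.59 there at day 3. From day 3 to day 14 in that tendon, 1 of these 9 rose, 2 fell and Flt3 stood at -0.01, while 8 of 10 macrophage genes fell. In the bursa 7 of 10 dendritic cell genes rose and Zbtb46 fell at both days. The dendritic cell list summed to 76.2 to 131 CPM in that tendon group at day 3 (23.9 to 41.5 in controls) and to 135 to 266 and 140 to 305 CPM in the bursa at day 3 and day 14 (41.1 to 118 in controls). Of 8 B cell genes, 4 were matched and summed to only 0.958 to 14.9 CPM. In tendon with the bursa intact, 2 of 2 tested rose at day 3 (median 1.90) and 1 of 2 at day 14. In the bursa 1 of 2 rose at each day. The 4 summed to 1.55 to 5.94 CPM in control bursae, 7.47 to 10.4 at day 3 and 7.28 to 14.9 at day 14. The authors' deposited tables had means of 0.18 to 4.13 normalized counts for Ms4a1 and 19 to 188 for Cd22.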

How the data were processed

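Per the submitters' processing notes, reads were demultiplexed with bcl2fastq 2.19, quantified with kallisto 0.44.0 and compared with DESeq2. No source used here names a genome build or annotation. The authors deposited estimated counts for 31715 transcripts in 46 libraries, as whole numbers and without symbols. They also deposited 11 gene tables, whose columns per the file headers are a normalized mean signal (baseMean), a log2 fold change with its standard error, a Wald score, a p-value and an adjusted p-value. Their sign ran opposite to the order of the comparison names and was turned.

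Transcripts were paired with symbols by comparing their normalized means with the deposited means over all 11 tables, which named 11962 of 23747 symbols, holding 73.9 to 89.1% of a library's counts. Of 15522 decoy targets 1.15% got a name. The rate differed by kind of match. For matches within rounding, decoys came to 0.785% of the symbols named. For lone matches within 5% they came to 21.7% of 434 symbols. No member was named in that last way, and genes of the lists named so were not counted. RT1-Db1 and Cd74 are sums of 2 transcripts, and unnamed transcripts stayed in the fits as features.

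Counts were filtered with filterByExpr, scaled by TMM and tested with edgeR 4.0.16 (quasi-likelihood, robust, R 4.3.3) in separate fits for 17 bursa libraries (18257 features), 29 tendon libraries (18353) and all 46 (19346). P-values were adjusted by Benjamini-Hochberg over all features of a fit, with a threshold of 0.05. Log2 CPM used a prior count of 2. Cd74 relative to macrophage genes and the Cd74 transcript share were compared by two-sided exact permutation tests (scipy 1.17.1), adjusted over 11 comparisons. The procedure was tested on simulated data. Alternatives were RLE size factors, DESeq2 1.42.0, no filter on low counts, fits of only the groups compared, a replicate block, log2(CPM + 1) and leaving out each library. No 2 libraries of the same group were the same within sampling noise, and pairs across groups were not checked for this.

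Same-numbered tendons with the bursa removed and intact varied together at day 14 (6 of 6 pairs with r of 0.21 to 0.49 across 9938 features). At day 3, 5 of 6 pairs did. Of these the day 14 numbers were taken as pairs, from the data and not from the labels, and only in alternative fits. The main test of removal used no block and took the libraries as independent. Bursa and tendon libraries with the bursa intact also paired at day 3 (6 of 6), and a block for these numbers was added as an alternative. All 8 members were named, with genes of lists for related pathways and cell types and the 5 genes most correlated with Cd74. The members and lists were chosen with earlier results of these data known. Promoter sequences are from RefSeq (GRCr8), a build that need not be the one the counts used.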

Additional observations from a re-analysis of the deposited data

Results flagged for a closer look

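For 7 tests the response of bursa and tendon differed by the test of the difference itself. At day 3 the bursa's log2 fold change minus the tendon's was -1.77 for RT1-Ba, -1.68 for RT1-Da, -1.64 for RT1-Db1, -1.29 for RT1-DMa, -1.14 for RT1-DMb and -1.62 for Cd74. At day 14 it was -0.86 for RT1-Ba, with an adjusted p of 0.048 in edgeR's test. That call was lost when any of 15 of the 22 libraries was left out. Among all features, 12.9% were called lower in this contrast at day 3 and 17.6% at day 14.

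In 9 of 72 groups of libraries examined, 1 library lay far from the rest of its group, and chance gives this in about 1 group in 20. Bursa day 3 library 6 was high for RT1-Da (504 CPM), RT1-Db1 (228 CPM) and Cd74 (1227 CPM), and tendon day 3 library 6 with the bursa intact was high for RT1-Da (552 CPM). Tendon day 14 library 5 with the bursa removed was low for RT1-Da (198 CPM) and RT1-Db1 (70.9 CPM). The minor Cd74 transcript held 12% in bursa day 14 library 6, the lowest of its group. The RT1-Db1 share of ENSRNOT00000060327.3 was lowest in library 4 of bursa day 14 (26.3%) and of tendon day 14 with the bursa intact (22.7%). These flags are not independent, since the genes share libraries.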

How the results depend on the processing

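DESeq2 kept every count of called members. At day 14 the bursa against tendon response, with 1 member called, had 0 with RLE size factors, 0 without the low-count filter and 0 when fitted on its groups alone, where RT1-Ba was at -0.84, -0.80 and -0.85 (adjusted p 0.05, 0.092 and 0.14). Of all features, 6047 of 19346, 5590 of 27047 and 4963 of 18591 were called in these fits. Without control bursae 1 and 2, an alternative chosen after seeing the data, the day 14 response had 4 (7999 of 19863 features called), and RT1-DMb turned to 0.03. In the same alternative bursa day 3 had 3 called instead of 6 (7145 of 18875 features called). Cd74 relative to macrophage genes there was -0.90 (adjusted exact permutation p 0.13), from the smallest p that 6 against 3 libraries allow. Fitted on its groups alone, bursa day 14 against day 3 had 1 called (Cd74), beside 4997 of 17578 features. In such fits RT1-Db1 and Cd74 lost their calls in bursa day 3 and RT1-DMb in bursa day 14. Without the low-count filter RT1-Db1 in bursa day 3 and RT1-Ba in tendon day 14 against day 3 with the bursa intact lost theirs. The cause was not tested. With the replicate block, 2 members were called in the bursa at day 3 (3879 of 17514 features) and 0 at day 14 (82 of 17757 features). Control and operated bursae came from different rats. Same-numbered libraries had r of -0.35 to 0.32 at day 3, with 3 of 5 pairs over 0.1. At day 14 r was -0.12 to 0.47, with 4 of 5 pairs over 0.1. The block moved no other count by over 1.5 times, also not for removal at day 14, where 0 were called. A block of the day 3 numbers, chosen after seeing the data, gave 5 of 6 for the day 3 response, and one of the day 14 numbers 0 for the removal effect between days.

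Leaving out each library, the called members ranged from 4 to 6 for bursa day 3, 4 to 6 for tendon day 14 against day 3 with the bursa intact and 0 to 4 for the day 14 response, and stayed at 6 or 0 elsewhere. Uncalled differences near 0 changed sign. For removal at day 14 they ran from -0.02 to 0.18 for RT1-Ba, -0.04 to 0.15 for RT1-Da, -0.03 to 0.13 for RT1-Db1 and -0.03 to 0.15 for Cd74, and at day 3 from -0.07 to 0.12 for RT1-DMa and -0.15 to 0.06 for RT1-DMb. The difference of removal between days ran from -0.21 to 0.01 for RT1-Ba, -0.12 to 0.08 for RT1-DMb and -0.15 to 0.05 for Cd74. Cd74 relative to macrophage genes ran from -1.06 to -0.89 in bursa day 3. Against control tendon it ran from 0.23 to 0.7 and 0.39 to 0.87 at day 3 and from 0.3 to 0.77 and 0.35 to 0.82 at day 14, with the bursa intact and removed. Between the days it ran from -0.02 to 0.15 and -0.1 to 0.07, and for removal at day 14 from -0.03 to 0.17. The Cd74 transcript share of tendon day 14 with the bursa removed against control ran from -0.6 to 1.09 points, turning without control tendon 2. The macrophage reference by Csf1r alone was not run, since that gene had no matched transcript, and RT1-Bb and Ciita have no alternatives here.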
